A study of Mus musculus with 12 samples.

Results

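Vascular calcification is regulated by a small set of extracellular inhibitors, mineral-modifying enzymes, bone matrix proteins and skeletal transcription factors, and 9 of these genes were followed across cells sorted from the adult mouse aorta and its perivascular fat: Mgp, Sost, Tnfrsf11b, Ibsp, Spp1, Enpp1, Alpl, Runx2 and Sox9. They were picked out by symbol, as genes known from vascular calcification, from a table of read counts over 33352 genes. All 9 were in the table, each on a single row, and all 9 were among the 19016 genes that passed the filter on low counts. Poly(A) RNA was sequenced from 4 sorted populations with 3 libraries each, named SMC2, SMC1 (both labelled smooth muscle cells), Intermediate (labelled perivascular intermediate cells) and Progenitor (labelled perivascular progenitor cells). The animals of all 4 populations were wild-type CD-1 males aged 13 weeks, with no transgene and no treatment given in the labels. The labels give neither the sort's antibodies and gates nor the number of animals behind a library, and do not say what the library numbers 1 to 3 mark. The p-values then cover only how far these libraries vary, and that variation may be technical.

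Mineral in the vessel wall is deposited as calcium phosphate when the local balance of inhibitors and promoters allows it. Pyrophosphate, which Enpp1 makes from extracellular ATP, blocks crystal growth, and Alpl, the tissue-nonspecific alkaline phosphatase, breaks pyrophosphate down. Matrix Gla protein, encoded by Mgp, is a vitamin K-dependent inhibitor secreted by vascular smooth muscle and cartilage, and mice without it calcify their arteries. Osteoprotegerin (Tnfrsf11b), a decoy receptor for RANK ligand, and sclerostin (Sost), an antagonist of Wnt signalling best known from osteocytes, act as secreted brakes on other pathways. Bone sialoprotein (Ibsp) and osteopontin (Spp1) are acidic phosphoproteins of mineralized matrix, and Runx2 and Sox9 are the master transcription factors of osteoblasts and chondrocytes.

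Library depth was 13258631 to 22647175 counts. Levels are given as CPM, the count of a gene relative to the library's total, with totals adjusted by the trimmed mean of M values. The sorted identities were checked with 8 smooth muscle and 8 fibroblast markers. The smooth muscle markers summed to 19080 to 27188 CPM in SMC2, 29994 to 36302 CPM in SMC1, 509 to 640.3 CPM in Intermediate and 265 to 569 CPM in Progenitor. The fibroblast markers summed to 429.6 to 893 CPM in SMC2, 1064 to 1872 CPM in SMC1, 41624 to 50147 CPM in Intermediate and 50899.6 to 63647 CPM in Progenitor. No marker of either list was at 0 in any population. Further cell types were marked by other lists. The 8 adipocyte markers summed to 2636 to 2913 CPM in SMC2, 160.0 to 325 CPM in SMC1, 209 to 287 CPM in Intermediate and 1453 to 2416 CPM in Progenitor. Most of the Progenitor sum was Lpl, which averaged 1768 CPM there and 545 CPM in SMC2. Of the 8 markers, 6 were called higher and 1 lower in SMC2 than in Progenitor, beside 23.1% and 21.7% of all genes tested. The 10 endothelial markers reached 60.4 to 152 CPM in SMC2, 342 to 456 CPM in SMC1, 101 to 159 CPM in Intermediate and 180.0 to 249.5 CPM in Progenitor, and the 7 Schwann cell markers stayed at or below 138 CPM in all 12 libraries. In these bulk libraries fewer cells of a type and less RNA per cell cannot be told apart.

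The 9 genes fell into contrasting patterns. Sost, Ibsp and Tnfrsf11b had their highest mean in SMC1. Mgp, Enpp1, Alpl, Spp1 and Runx2 had their highest mean in Intermediate, and of these Mgp and Enpp1 were not called different between SMC1 and Intermediate. Sox9 was highest in Progenitor, where it was not distinguishable from Intermediate. None of the 9 had its highest mean in SMC2, and 5 of the 9 had their lowest mean there.

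**Figure D1:**
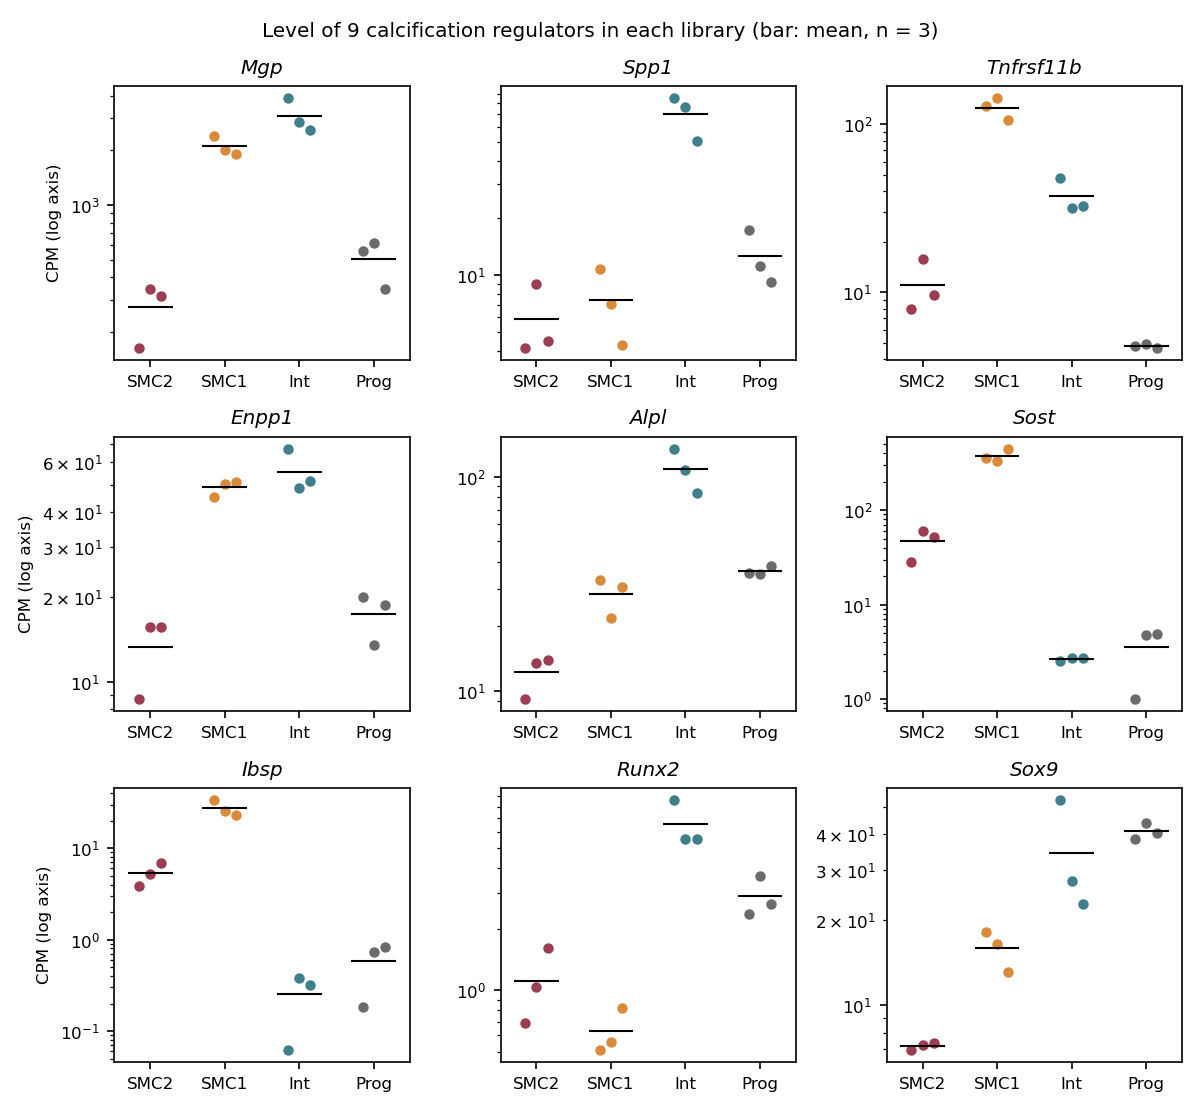
Level of each of the 9 genes in each library in CPM on a log axis, with a panel per gene, populations from left to right in the order SMC2, SMC1, Intermediate (Int) and Progenitor (Prog), a point per library and a bar at the mean of 3. Sost and Ibsp separate both smooth muscle populations from the other 2, while Spp1, Alpl and Runx2 peak in Intermediate.

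Sost and Ibsp were both high in smooth muscle and low in the other 2 populations. The DNA just before their start sites, and before the first of 2 RefSeq start sites of Spp1, is shown for comparison. Spp1 lies 123.6 kb from Ibsp on chromosome 5 and has a contrasting pattern. Each line gives the 250 bases upstream of a RefSeq start site in build GRCm38.p6, read 5′ to 3′ on the gene's strand, and capitals mark matches on either strand to a CCAAT box, a TATA motif or the Runx core.
Sost, chr11:101967016-101967265, minus strand: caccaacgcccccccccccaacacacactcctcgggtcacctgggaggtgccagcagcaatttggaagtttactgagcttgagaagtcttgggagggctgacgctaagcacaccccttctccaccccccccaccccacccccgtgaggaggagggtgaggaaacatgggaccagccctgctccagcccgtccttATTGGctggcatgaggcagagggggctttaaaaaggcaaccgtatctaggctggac
Ibsp, chr5:104299037-104299286, plus strand: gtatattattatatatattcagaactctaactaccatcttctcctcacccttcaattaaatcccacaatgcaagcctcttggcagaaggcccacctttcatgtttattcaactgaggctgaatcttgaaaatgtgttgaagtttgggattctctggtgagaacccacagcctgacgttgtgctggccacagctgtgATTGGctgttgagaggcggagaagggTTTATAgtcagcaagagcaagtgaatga
Spp1, chr5:104434861-104435110, plus strand: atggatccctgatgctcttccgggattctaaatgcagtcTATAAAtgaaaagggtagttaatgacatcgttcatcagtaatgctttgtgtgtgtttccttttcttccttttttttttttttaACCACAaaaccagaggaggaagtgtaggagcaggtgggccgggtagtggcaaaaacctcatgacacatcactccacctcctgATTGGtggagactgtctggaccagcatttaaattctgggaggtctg
With the base before the start site counted as -1, a CCAAT box on the opposite strand, read here as ATTGG, lay at -56 to -52 in Sost, at -54 to -50 in Ibsp and at -46 to -42 in Spp1. Of 32851 RefSeq promoters of the same length, 33.8% held CCAAT on either strand, so this shared match is a common one. TATAAA, held by 12.4% of the promoters, matched Ibsp on the opposite strand at -28 to -23 and Spp1 on the gene's strand at -211 to -206. The Runx core TGTGGT, held by 14% of the promoters, matched Spp1 on the opposite strand at -128 to -123. These Spp1 matches belong to its first start site. The window of the second, chr5:104435942-104436191, is not printed and held no match. A CArG box, the element bound by serum response factor in muscle genes, was searched as well and was found in 1.47% of promoters and in none of the 6 genes of the 9 that had an entry. No match overlapped another motif, and the matches are descriptions of the sequence only. The GENCODE start of Ibsp, at base 104299171, lies inside its printed window, so the annotated starts differ between the catalogues. Mgp, Tnfrsf11b and Sox9 are named without a promoter sequence.

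Among the secreted inhibitors, Sost (chr11:101962458-101967015, minus strand) marked smooth muscle. It reached 28.2, 60.6 and 51.8 CPM in SMC2, 361, 331 and 439 CPM in SMC1, 2.55, 2.70 and 2.75 CPM in Intermediate, and 1.003, 4.73 and 4.86 CPM in Progenitor. Every SMC1 library lay above every SMC2 library, and both smooth muscle populations lay above all libraries of the other 2. SMC1 exceeded Intermediate 141-fold (log2 change 7.14 ± 0.47, SE; edgeR adjusted p = 6.63e-09) and Progenitor by 6.78 ± 0.46 log2 units (adjusted p = 7.44e-09). SMC2 was 8.05-fold below SMC1 (-3.01 ± 0.37, adjusted p = 1.27e-05) and still above Progenitor (3.77 ± 0.41, adjusted p = 1.94e-06). Intermediate and Progenitor were not distinguished, with a 95% interval of the log2 difference from -1.33 to 0.61. The low Progenitor library, replicate 1, was also the library with the smallest sum of smooth muscle markers, at 265 CPM against 569 and 552 CPM in replicates 2 and 3. The part of that sum in the low Sost levels of Intermediate and Progenitor was not tested.

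Mgp (chr6:136872435-136875823, minus strand) was the most abundant of the 9 genes in every population. It reached 163, 345 and 317 CPM in SMC2, 2413, 2007 and 1920.2 CPM in SMC1, 3866, 2851 and 2599.6 CPM in Intermediate, and 556, 619.9 and 345 CPM in Progenitor. The Intermediate and SMC1 libraries stood well above the other 6, while the highest SMC2 library, at 344.7 CPM, came within 1 CPM of the lowest Progenitor library, at 345.4 CPM. Intermediate exceeded Progenitor 6.12-fold (2.61 ± 0.28 log2 units, edgeR adjusted p = 1.63e-06), and SMC1 exceeded Progenitor by 2.06 ± 0.27 (adjusted p = 3.49e-06). SMC2 was 7.68-fold below SMC1 (-2.94 ± 0.28, adjusted p = 1.10e-07) and 11.3-fold below Intermediate (-3.50 ± 0.29, adjusted p = 4.46e-09). The smaller SMC2 deficit against Progenitor passed the test (-0.88 ± 0.27, adjusted p = 0.0104) but not without Progenitor replicate 2 (-0.72, adjusted p = 0.0545). SMC1 and Intermediate did not overlap, yet their difference missed the threshold (-0.56 ± 0.26, adjusted p = 0.102), which it passed when only these 6 libraries were fitted (adjusted p = 0.0276).

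Tnfrsf11b (chr15:54250619-54278484, minus strand), the gene for osteoprotegerin, was graded across the populations. Its levels were 7.91, 15.9 and 9.60 CPM in SMC2, 128, 142 and 107 CPM in SMC1, 47.7, 31.7 and 32.8 CPM in Intermediate, and 4.83, 4.93 and 4.67 CPM in Progenitor. No library of any population overlapped those of another, so the order was SMC1, Intermediate, SMC2 and Progenitor. All 6 comparisons passed the test. SMC1 exceeded Progenitor 26.1-fold (4.70 ± 0.25 log2 units, edgeR adjusted p = 9.86e-12) and Intermediate 3.36-fold (1.75 ± 0.22, adjusted p = 1.67e-06). SMC2 was 11.3-fold below SMC1 (-3.50 ± 0.24, adjusted p = 9.61e-10) and 2.31-fold above Progenitor (1.21 ± 0.24, adjusted p = 0.000324). Intermediate exceeded Progenitor by 2.96 ± 0.24 (adjusted p = 6.87e-08) and SMC2 lay below Intermediate by a log2 change of -1.75 ± 0.22 (adjusted p = 1.92e-06).

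The enzymes that make and remove pyrophosphate did not share a pattern. Enpp1 (chr10:24637914-24712159, minus strand) was at 8.70, 15.7 and 15.7 CPM in SMC2, 45.4, 50.4 and 51.2 CPM in SMC1, 66.7, 48.9 and 51.4 CPM in Intermediate, and 19.9, 13.5 and 18.7 CPM in Progenitor. It was thus high in SMC1 and Intermediate, whose libraries overlapped, and low in SMC2 and Progenitor, whose libraries overlapped as well. Enpp1 rose 2.81-fold in SMC1 over Progenitor (1.49 ± 0.21 log2 units, edgeR adjusted p = 6.13e-06) and 3.198-fold in Intermediate over Progenitor (1.68 ± 0.21, adjusted p = 8.94e-06). The SMC1 minus Intermediate difference had a 95% interval from -0.61 to 0.24, and the SMC2 minus Progenitor difference one from -0.83 to 0.06.

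Alpl (chr4:137741733-137796384, minus strand) instead peaked in Intermediate. It reached 9.16, 13.5 and 13.9 CPM in SMC2, 32.9, 21.9 and 30.5 CPM in SMC1, 134, 107 and 84.2 CPM in Intermediate, and 35.5, 34.9 and 38.3 CPM in Progenitor. The Intermediate libraries stood above all others and the SMC2 libraries below all others. Alpl was 2.996-fold higher in Intermediate than in Progenitor (1.58 ± 0.20 log2 units, edgeR adjusted p = 8.28e-06). SMC2 lay 8.91-fold below Intermediate (-3.16 ± 0.21, adjusted p = 1.28e-10) and 2.97-fold below Progenitor (-1.57 ± 0.21, adjusted p = 1.99e-06). SMC1 was 3.82-fold below Intermediate (-1.93 ± 0.20, adjusted p = 1.08e-07), and its difference from Progenitor missed the threshold (-0.35 ± 0.20, adjusted p = 0.152) although the libraries did not overlap. Under upper-quartile scaling that last difference was -0.54 with an adjusted p of 0.0363.

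Within each library, the Alpl count per kilobase of exon was divided by that of Enpp1, a measure chosen after the levels had been seen. The ratio was 2.68, 2.20 and 2.26 in SMC2, 1.84, 1.11 and 1.52 in SMC1, 5.11, 5.59 and 4.16 in Intermediate, and 4.53, 6.60 and 5.21 in Progenitor. Alpl transcript thus outnumbered Enpp1 transcript per length in all 12 libraries, least in SMC1 and most in Intermediate and Progenitor, which overlapped. In the other 5 comparisons the libraries did not overlap, and an exact two-sided permutation test gave p = 0.1 in each, the smallest value that 3 against 3 libraries allow, while Intermediate against Progenitor gave an exact p = 0.5. No adjustment over the 6 comparisons could bring such a p below the threshold.

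**Figure D2:**
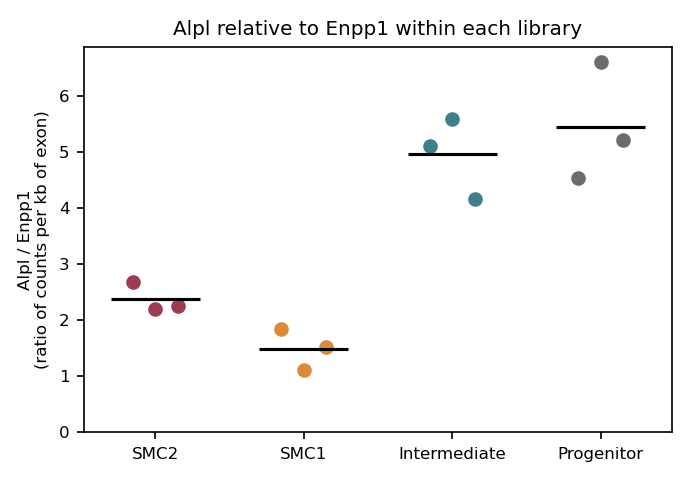
Ratio of Alpl to Enpp1 counts per kilobase of exon in each library (vertical axis, from 0) for SMC2, SMC1, Intermediate and Progenitor, with a point per library and a bar at the mean of 3. The mean ratio was 2.38 in SMC2, 1.49 in SMC1, 4.96 in Intermediate and 5.44 in Progenitor.

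Of the bone matrix proteins, Ibsp (chr5:104299171-104311469, plus strand) resembled Sost. Ibsp was at 3.82, 5.24 and 6.90 CPM in SMC2, 33.2, 25.5 and 22.96 CPM in SMC1, 0.0621, 0.377 and 0.319 CPM in Intermediate, and 0.182, 0.733 and 0.821 CPM in Progenitor. The Intermediate levels rest on 1, 6 and 5 reads and the Progenitor levels on 4, 11 and 13 reads, so Ibsp passed the filter on low counts through its smooth muscle libraries. SMC1 exceeded Intermediate by 6.72 ± 0.44 log2 units (edgeR adjusted p = 1.89e-10) and Progenitor by 5.62 ± 0.39 (adjusted p = 3.89e-10). SMC2 was 5.14-fold below SMC1 (-2.36 ± 0.30, adjusted p = 4.12e-06) and 9.59-fold above Progenitor (3.26 ± 0.40, adjusted p = 1.06e-06). As for Sost, Progenitor replicate 1 was the lowest Progenitor library. The Intermediate minus Progenitor difference was not called, with a 95% interval from -2.36 to 0.17.

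Spp1 (chr5:104435118-104441050, plus strand), the neighbour of Ibsp beyond Mepe on the same strand, peaked in Intermediate. Spp1 was at 4.14, 8.94 and 4.50 CPM in SMC2, 10.8, 7.04 and 4.28 CPM in SMC1, 84.8, 76.4 and 50.7 CPM in Intermediate, and 17.3, 11.2 and 9.16 CPM in Progenitor. The Intermediate libraries lay above all others, while SMC2, SMC1 and Progenitor lay close together, with overlap between SMC2 and SMC1 and between SMC1 and Progenitor. Intermediate exceeded Progenitor 5.59-fold (2.48 ± 0.34 log2 units, edgeR adjusted p = 9.25e-05). SMC1 was 9.54-fold below Intermediate (-3.25 ± 0.36, adjusted p = 1.95e-06) and SMC2 was lower still on the same comparison (-3.59 ± 0.37, adjusted p = 6.04e-07). Between SMC2 and SMC1 the log2 difference was -0.33 ± 0.36, with an interval from -1.10 to 0.43.

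The remaining Spp1 differences depended on the libraries included or on the processing. SMC2 was below Progenitor (-1.10 ± 0.35, edgeR adjusted p = 0.0181), but the adjusted p was 0.126 without Progenitor replicate 1, 0.0820 without SMC2 replicate 1 and 0.0627 without SMC2 replicate 3. SMC1 minus Progenitor was not called (-0.77 ± 0.35, adjusted p = 0.0798) and was called without SMC1 replicate 1 (-1.23, adjusted p = 0.0117). With all libraries kept it was also called under upper-quartile scaling (adjusted p = 0.0267), by the DESeq2 Wald test (adjusted p = 0.0409), without the filter on low counts (adjusted p = 0.00297), with only these 6 libraries fitted (adjusted p = 0.0441) and with the replicate block (adjusted p = 0.0156). Spp1 is also a gene of macrophages, whose 12 markers summed to 679 CPM in that SMC1 library, against 155 and 175 CPM in the other two. In the other populations the macrophage sum was 151 to 307 CPM in SMC2, 125 to 172 CPM in Intermediate and 163 to 193 CPM in Progenitor. Of the 12 macrophage markers, 1 was called higher and 0 lower in Intermediate than in Progenitor, namely Csf1r, at 18.6 CPM in Intermediate and 9.72 CPM in Progenitor (0.94 ± 0.32 log2 units, edgeR adjusted p = 0.0432). The part of macrophage RNA in the Spp1 levels was not tested. Mesothelial markers, 10 in number, summed to 204, 195 and 448 CPM in Intermediate against 84.2, 91.4 and 87.7 CPM in Progenitor, and their part in the Spp1 difference was not tested. Of the Spp1 exon bases, 18.8% overlap the gene model Gm42793, and the library kit does not mark strand.

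Runx2 (chr17:44495987-44814797, minus strand), the osteoblast factor, was low everywhere and lowest in smooth muscle. It was at 0.690, 1.04 and 1.62 CPM in SMC2, from 15, 21 and 27 reads, and at 0.509, 0.559 and 0.820 CPM in SMC1, from 10, 12 and 14 reads. In Intermediate Runx2 was at 8.58, 5.53 and 5.56 CPM, and in Progenitor at 2.37, 3.67 and 2.65 CPM. The Intermediate libraries lay above those of Progenitor, which lay above all 6 smooth muscle libraries. SMC1 was 10.4-fold below Intermediate (-3.38 ± 0.38 log2 units, edgeR adjusted p = 3.70e-07) and 4.58-fold below Progenitor (-2.20 ± 0.39, adjusted p = 8.41e-05). SMC2 was 5.93-fold below Intermediate (-2.57 ± 0.36, adjusted p = 5.08e-06) and 2.61-fold below Progenitor (adjusted p = 0.00365). Intermediate exceeded Progenitor (1.18 ± 0.33, adjusted p = 0.0147), a call that was lost without Intermediate replicate 1 (adjusted p = 0.0871) and without Progenitor replicate 1 (adjusted p = 0.0650). SMC2 and SMC1 were not distinguished (0.81 ± 0.41, interval -0.036 to 1.66). Reads of Runx2os1, an opposite-strand gene over 5.87% of the Runx2 exon bases, could not be told apart from those of Runx2.

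Sox9 (chr11:112782224-112787760, plus strand), the chondrocyte factor, was lowest in SMC2 and next lowest in SMC1. It was at 6.95, 7.21 and 7.38 CPM in SMC2, 18.1, 16.4 and 13.1 CPM in SMC1, 52.6, 27.4 and 22.7 CPM in Intermediate, and 38.5, 44.0 and 40.4 CPM in Progenitor. SMC2 lay below SMC1, and SMC1 below the other populations, without overlap, while the Intermediate libraries spanned those of Progenitor. SMC2 was 5.70-fold below Progenitor (-2.51 ± 0.25 log2 units, edgeR adjusted p = 5.81e-08) and 2.21-fold below SMC1 (-1.15 ± 0.24, adjusted p = 0.00101). SMC1 was 2.58-fold below Progenitor (-1.37 ± 0.23, adjusted p = 7.59e-05). Intermediate minus Progenitor was not called (-0.26 ± 0.23, interval -0.74 to 0.22) and was called as lower without Intermediate replicate 1 (-0.70, adjusted p = 0.0144), the library with the high Sox9 value.

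Read per comparison, 6 of the 9 genes were higher and 0 were lower in Intermediate than in Progenitor, where 12.7% of all genes tested were called higher and 9.46% lower. The 3 not called were Sost, Ibsp and Sox9. In SMC1 against Progenitor, 5 members were higher (Mgp, Sost, Tnfrsf11b, Ibsp and Enpp1) and 2 lower (Runx2 and Sox9), beside 25.3% and 23.1% of all genes. In SMC2 against Progenitor, 3 were higher (Sost, Tnfrsf11b and Ibsp) and 5 lower, beside 23.1% higher and 21.7% lower among all genes. In SMC1 against Intermediate, 3 were higher (Sost, Tnfrsf11b and Ibsp) and 4 lower, beside 19.7% and 21.9%. In SMC2 against Intermediate, 2 were higher (Sost and Ibsp) and 7 lower, beside 21.4% and 23.2%. In SMC2 against SMC1, 0 were higher and 7 lower, beside 16.5% and 18.1%, with Spp1 and Runx2 not called.

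The median log2 change of the 9 genes was 1.58 in Intermediate minus Progenitor and 1.49 in SMC1 minus Progenitor, where the median of all genes was 0.078 and -0.0049. It was -0.88 in SMC2 minus Progenitor, -0.56 in SMC1 minus Intermediate, -2.25 in SMC2 minus Intermediate and -1.88 in SMC2 minus SMC1, with medians of all genes of 0.057, 0.0022, 0.037 and -0.0028. The comparisons share populations, so these counts and medians are not independent of each other. SMC2 replicate 1 held the lowest SMC2 value of all 9 genes, and Intermediate replicate 1 held the highest Intermediate value of 7 of the 9. SMC2 replicate 1 also had the highest smooth muscle sum of its population (27188 CPM) and the lowest fibroblast sum (429.6 CPM), and the part of this in the SMC2 levels was not tested.

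**Figure D3:**
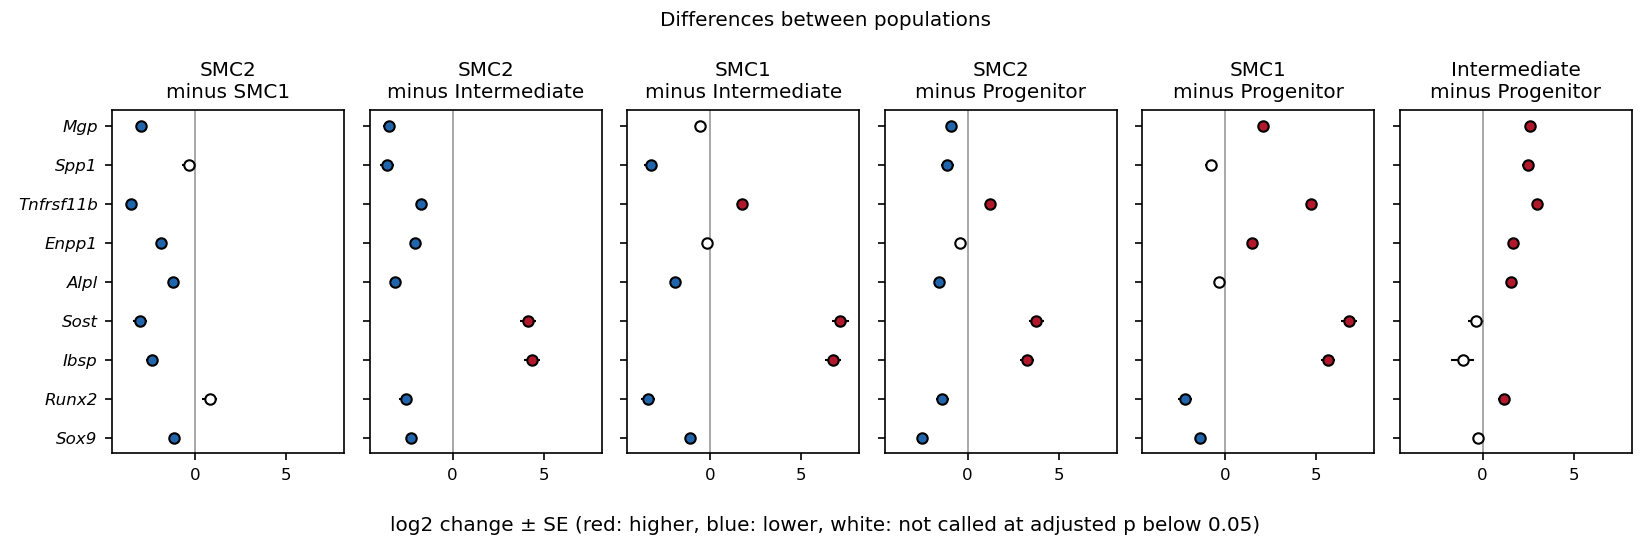
Log2 change of each of the 9 genes (rows) in the 6 comparisons (panels), with the standard error as the horizontal bar and a vertical line at 0. Red points passed the test as higher, blue points as lower and white points were not called; all 7 called points of SMC2 minus SMC1 lie left of 0.

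Set on a per-length scale, CPM per kilobase of exon, the 9 genes kept a similar top and changed lower down. Mgp ranked first of the 9 in all 4 populations, at 232 ± 82.3 in SMC2, 1781 ± 222 in SMC1, 2616 ± 565 in Intermediate and 427 ± 121 in Progenitor (mean ± SD, n = 3). Among all genes tested with an annotated length, Mgp ranked 137 from the top in SMC2, 11 in SMC1, 7 in Intermediate and 76 in Progenitor. The runner-up was Sost in SMC2 (22.7 ± 8.11) and SMC1 (182 ± 27.1), Spp1 in Intermediate (42.9 ± 10.8) and Sox9 in Progenitor (9.91 ± 0.675). In Progenitor that place was close, since Alpl stood at 8.98 ± 0.446 and took it when the longest transcript set the length. At the bottom were Runx2 in SMC2 (0.126 ± 0.0532) and SMC1 (0.0712 ± 0.0189) and Ibsp in Intermediate (0.122 ± 0.0810) and Progenitor (0.280 ± 0.167). All 9 genes kept their rank with the longest transcript in SMC1 and Intermediate, and 4 kept it in SMC2 and in Progenitor.

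**Figure D4:**
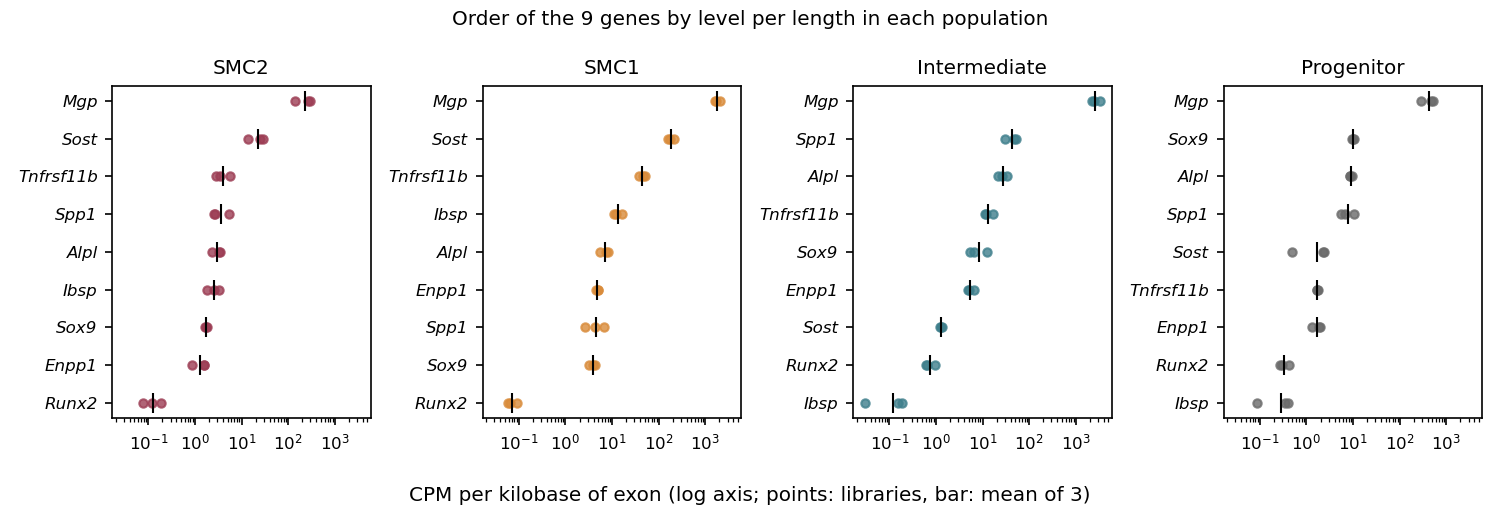
Level of the 9 genes in CPM per kilobase of exon on a log axis, ordered within each of the 4 populations, with a point per library and a bar at the mean of 3. Mgp leads in every population, while Sost is next in both smooth muscle populations and Spp1 next in Intermediate.

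The likeness of profiles was measured as the root mean square difference between gene-centred log2 CPM over the 12 libraries, so that a smaller value is a closer match. Within the 9 genes the closest pairs were Mgp and Enpp1 at 0.632, Spp1 and Alpl at 0.659, and Sost and Ibsp at 0.671. The furthest pair was Sost and Spp1 at 4.16, and the neighbours Ibsp and Spp1 differed by 3.82. Against a pool of 8993 named genes, the nearest to Sost were Htr1b, a serotonin receptor, at 0.252, followed by Npnt and Itih4. Nearest to Ibsp was Pgm5 at 0.285, and Myoz2 was also among its near genes at 0.442. For Tnfrsf11b the nearest was Eln, the elastin gene, at 0.342, followed by Rab27b and Sytl5. Nearest to Mgp were Itih2 at 0.331, Pam and Dapk2, and nearest to Enpp1 were Dapk2 at 0.260, Npr3 and Slc45a3, so that both shared Dapk2. Alpl was nearest to Clec14a at 0.271, Pak3 and C1qtnf2, while Spp1 was nearest to Vegfd at 0.526, Rftn1 and Pak3. Runx2 was nearest to Smtnl2 at 0.265, Klhl33 and Nfatc2, and Sox9 to Pdia5 at 0.251, Layn and Ppic. These values describe 12 libraries of 4 populations, which any gene with the same population means would share.

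Partners and related genes of the 9 genes were counted from 8 lists. Osteoprotegerin binds RANK ligand (Tnfsf11) and so keeps it from its receptor RANK (Tnfrsf11a). The receptor gene averaged 25.5 ± 3.66 CPM in SMC2, 83.6 ± 14.0 CPM in SMC1, 1.72 ± 0.634 CPM in Intermediate and 1.68 ± 1.11 CPM in Progenitor (SD, n = 3 each). Tnfrsf11a was thus highest in the population with the most Tnfrsf11b, rising by 5.68 ± 0.35 log2 units in SMC1 over Progenitor (edgeR adjusted p = 2.39e-10). RANK ligand itself stayed below 1 CPM on average, at 0.154 CPM in SMC2, 0.0664 CPM in SMC1, 0.333 CPM in Intermediate and 0.622 CPM in Progenitor. Of the 5 genes of the RANK ligand list, 1 rose and 0 fell in Intermediate against Progenitor, 2 rose and 2 fell in SMC1 against Progenitor, and 0 rose and 2 fell in SMC2 against SMC1. Among all genes tested the shares were, in that order, 12.7% and 9.46%, 25.3% and 23.1%, and 16.5% and 18.1%. Under upper-quartile scaling the first count turned to 0 higher and 1 lower.

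Sclerostin binds the Wnt co-receptors and its own co-receptor Lrp4. Lrp4 averaged 1.47 ± 0.988 CPM in SMC2, 1.14 ± 0.286 CPM in SMC1, 15.7 ± 2.98 CPM in Intermediate and 5.49 ± 1.73 CPM in Progenitor, so it was low where Sost was high. The Wnt co-receptor gene Lrp5 had its highest mean in SMC1. It averaged 4.57 CPM in SMC2, 10.8 CPM in SMC1, 8.92 CPM in Intermediate and 4.66 CPM in Progenitor. Lrp6 averaged 54.2 CPM in SMC2, 95.9 CPM in SMC1, 190 CPM in Intermediate and 118 CPM in Progenitor. Lrp4 was called higher in Intermediate than in Progenitor (1.52 ± 0.33 log2 units, edgeR adjusted p = 0.00245). Of the 12 genes of sclerostin and Wnt reception, 4 rose and 1 fell in Intermediate against Progenitor, 4 rose and 3 fell in SMC1 against Progenitor, and 2 rose and 4 fell in SMC2 against SMC1. In the same order, the shares of all genes tested were 12.7% and 9.46%, 25.3% and 23.1%, and 16.5% and 18.1%. Wif1, a secreted Wnt inhibitor, averaged 60.6 ± 14.97 CPM in SMC1 and 1.22 ± 0.581 CPM in Progenitor, and Dkk2, another Wnt antagonist, 1.66 ± 0.648 CPM in SMC1 and 79.2 ± 11.7 CPM in Progenitor. The sclerostin relative Sostdc1 averaged 5.04 ± 2.80 CPM in SMC2 and 2.95 ± 0.586 CPM in SMC1, so unlike Sost its highest mean was in SMC2. Its reads totalled 4 in Intermediate and 3 in Progenitor, so it passed the filter on low counts through its smooth muscle libraries.

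Osteopontin is bound by integrins and Cd44, and as a list its receptor genes did not share the pattern of Spp1. Of 10 receptor genes, 8 rose and 0 fell in SMC1 against Progenitor, and 0 rose and 8 fell in SMC2 against SMC1. Intermediate against Progenitor had 4 rising and 2 falling. SMC1 against Intermediate had 6 rising and 0 falling, while Spp1 was 9.54-fold lower there. Shares of all genes tested were, in that order, 25.3% and 23.1%, 16.5% and 18.1%, 12.7% and 9.46%, and 19.7% and 21.9%. Itga8, the integrin alpha-8 subunit, averaged 803 ± 224 CPM in SMC2, 7267 ± 1310 CPM in SMC1, 145 ± 18.5 CPM in Intermediate and 75.5 ± 33.8 CPM in Progenitor. Itgb3 averaged 19.1 ± 5.02 CPM in SMC2, 190 ± 39.1 CPM in SMC1, 18.1 ± 1.59 CPM in Intermediate and 36.0 ± 12.3 CPM in Progenitor. Itgb5 was high in both SMC1 and Intermediate. It averaged 308 ± 35.6 CPM in SMC2, 1265 ± 255 CPM in SMC1, 1047 ± 148 CPM in Intermediate and 421 ± 79.7 CPM in Progenitor. In SMC2 against SMC1, Itgb3 fell by 3.32 ± 0.24 log2 units (edgeR adjusted p = 3.28e-09) and Itga5 by 3.32 ± 0.22 (adjusted p = 5.04e-10).

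Other genes of phosphate and pyrophosphate handling, 12 tested, split as 3 higher and 2 lower in Intermediate against Progenitor, 5 and 3 in SMC1 against Progenitor, and 0 and 5 in SMC2 against SMC1. Shares of all genes tested were, in that order, 12.7% and 9.46%, 25.3% and 23.1%, and 16.5% and 18.1%. In SMC1 the nucleotidase gene Entpd1 exceeded Progenitor by 3.93 ± 0.22 log2 units (edgeR adjusted p = 1.03e-11), the phosphate exporter gene Xpr1 by 2.72 ± 0.18 and the phosphate transporter gene Slc20a2 by 2.28 ± 0.20. Ank, whose product exports ATP and pyrophosphate, averaged 72.5 ± 26.0 CPM in Intermediate and 32.2 ± 3.05 CPM in Progenitor, a rise of 1.17 ± 0.22 (adjusted p = 0.000624). Its mean was as high in SMC1, at 72.5 ± 15.8 CPM, and 43.6 ± 6.44 CPM in SMC2. Phospho1, a phosphatase of matrix vesicles, was at or below 0.186 CPM on average in every population.

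The vitamin K cycle, which activates the Mgp protein, was represented by 8 tested genes. Of these, 2 rose and 0 fell in Intermediate against Progenitor, 1 rose and 2 fell in SMC1 against Progenitor, and 0 rose and 5 fell in SMC2 against SMC1. Shares of all genes tested were, in that order, 12.7% and 9.46%, 25.3% and 23.1%, and 16.5% and 18.1%. Ggcx, the gamma-carboxylase, averaged 63.6 ± 4.59 CPM in SMC2, 118 ± 30.8 CPM in SMC1, 238 ± 33.8 CPM in Intermediate and 139 ± 26.1 CPM in Progenitor. Ggcx was thus lowest in SMC2, as Mgp was, and higher in Intermediate than in Progenitor (0.78 ± 0.19 log2 units, edgeR adjusted p = 0.00552). The likeness did not extend to SMC1, where the Ggcx mean was below that of Progenitor while Mgp was 4.17-fold above it.

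Further bone matrix genes, 10 tested, split as 6 higher and 1 lower in Intermediate against Progenitor, a count that was 3 and 1 under upper-quartile scaling. The split was 3 and 6 in SMC1 against Progenitor and 2 and 7 in SMC2 against SMC1. For the same comparisons, in order, the shares of all genes tested were 12.7% and 9.46%, 25.3% and 23.1%, and 16.5% and 18.1%. Phex, an endopeptidase of osteoblasts, averaged 1.49 ± 0.839 CPM in SMC2, 15.3 ± 0.557 CPM in SMC1, 45.3 ± 12.5 CPM in Intermediate and 7.69 ± 1.38 CPM in Progenitor. Col1a1, which is counted in this list, is also among the fibroblast markers. Products of mature bone were low: Bglap (osteocalcin) averaged 0.305 CPM or less and Mepe 0.236 CPM or less in each population.

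Osteogenic transcription factors other than Runx2, 9 tested, split as 1 higher and 0 lower in Intermediate against Progenitor, 0 and 7 in SMC1 against Progenitor, and 5 and 0 in SMC2 against SMC1. Among all genes tested the shares were, in that order, 12.7% and 9.46%, 25.3% and 23.1%, and 16.5% and 18.1%. The single gene of the first count, Dlx5, was not called under DESeq2 size factors or upper-quartile scaling. Cbfb, the partner subunit of Runx proteins, averaged 20.7 ± 1.01 CPM in SMC1 and 75.8 ± 3.01 CPM in Progenitor (-1.87 ± 0.18 log2 units, edgeR adjusted p = 2.11e-08). Runx1, a relative of Runx2, was higher in SMC2 than in SMC1, at 21.0 ± 1.95 CPM in SMC2 and 5.97 ± 0.324 CPM in SMC1 (1.82 ± 0.18, adjusted p = 1.11e-07). Sp7, which acts after Runx2 in osteoblasts, averaged 0.463 CPM or less in each population.

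Cartilage genes, 19 tested beside Sox9, split as 3 higher and 2 lower in Intermediate against Progenitor, 4 and 5 in SMC1 against Progenitor, and 5 and 2 in SMC2 against SMC1. In the same order, the shares of all genes tested were 12.7% and 9.46%, 25.3% and 23.1%, and 16.5% and 18.1%. The Sox9 partners Sox5 and Sox6 ran opposite to Sox9, being highest in SMC2. Sox6 averaged 59.8 ± 11.9 CPM in SMC2, 16.6 ± 2.02 CPM in SMC1, 2.89 ± 1.37 CPM in Intermediate and 2.11 ± 0.797 CPM in Progenitor. Sox6 was higher in SMC2 than in SMC1 by 1.85 ± 0.25 log2 units (edgeR adjusted p = 8.19e-06) and Sox5 by 1.46 ± 0.18 (adjusted p = 2.05e-06). Acan, the aggrecan gene and a Sox9 target in cartilage, averaged 7.12 ± 3.31 CPM in SMC1 and 0.457 ± 0.179 CPM in Progenitor, so the sign of its difference (3.98 ± 0.48, adjusted p = 7.06e-07) was opposite to that of Sox9. Col2a1, the collagen gene that Sox9 drives in cartilage, averaged 0.827 CPM or less in every population.

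**Figure D5:**
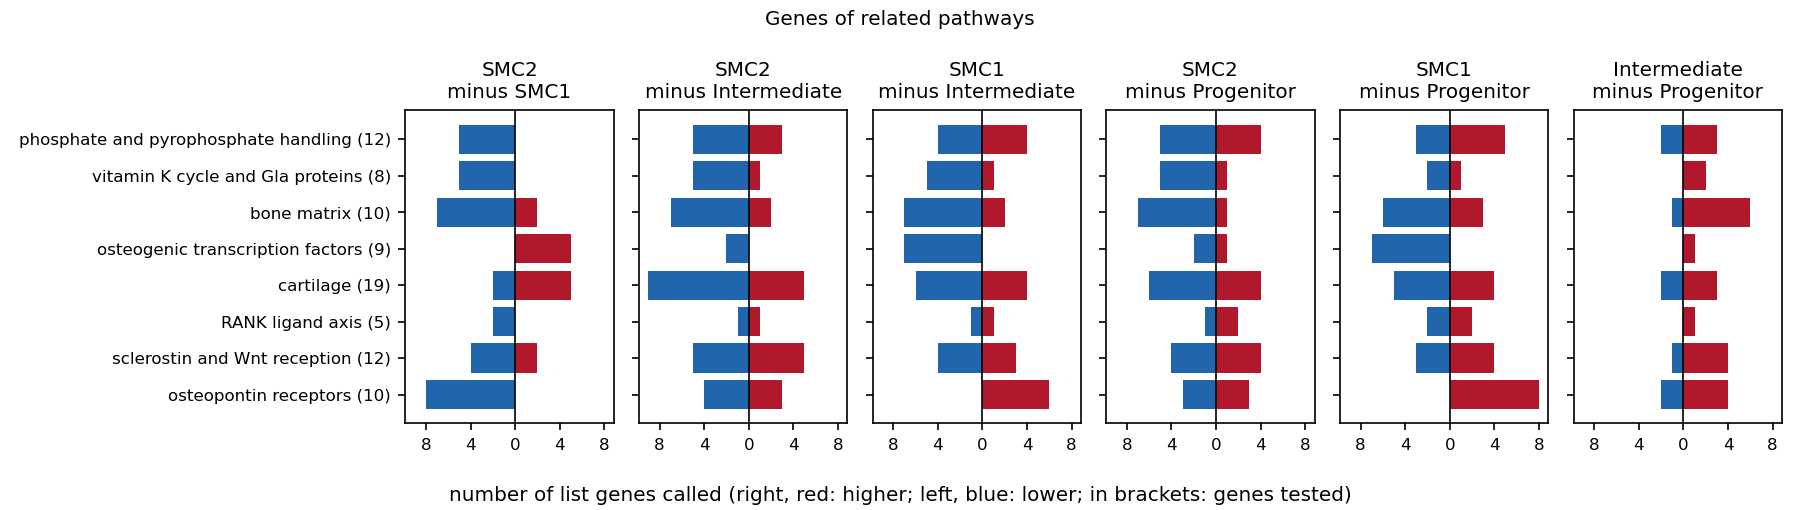
Number of genes called in 8 pathway lists (rows, with the genes tested in brackets) in the 6 comparisons (panels), with red bars to the right for higher and blue bars to the left for lower. The osteopontin receptors show 8 higher and 0 lower in SMC1 minus Progenitor and 0 higher and 8 lower in SMC2 minus SMC1. Of all genes tested, 25.3% were higher and 23.1% lower in SMC1 minus Progenitor, and 16.5% and 18.1% in SMC2 minus SMC1.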

How the data were processed

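The authors deposited whole-number read counts per gene for 12 libraries, with normalized and regularized log values that were not used here. Per the labels' protocols, poly(A) RNA from sorted cells went through a SMART-Seq kit for ultra-low input; kits of this kind do not mark strand, so overlapping opposite-strand genes cannot be told apart. Per the submitters' processing notes, STAR 2.5.2a, DESeq2 1.26.0 and build mm10 were used; the program that counted reads is not given in the sources used here, nor is its annotation.

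Tests used edgeR 4.0.16 in R 4.3.3 with limma 3.58.1, and fitted a mean per population over all 12 libraries, after filterByExpr (19016 genes) and TMM scaling (common biological coefficient of variation 0.206), with a two-sided robust quasi-likelihood F test and Benjamini-Hochberg adjustment over all genes at 0.05. SE is the log2 change divided by the square root of F. Log2 CPM used a prior count of 2. Exon lengths and coordinates are from GENCODE M21 (GRCm38), and promoter sequences from RefSeq (GRCm38.p6). The fit was tested on simulated counts.

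The 9 genes and 8 pathway and 7 marker lists were chosen with earlier results of these data known. Named were all 9 genes, up to 4 called genes per list and comparison with the smallest adjusted p, and the 3 genes nearest to each member among named genes reaching a population mean of 4 log2 CPM. A gene that the rule names is not reported here. Outside this rule, list genes with a stated role beside a member (such as Tnfsf11, Csf1, Phospho1, Bglap, Mepe, Sp7, Col2a1, Lrp4 and Ggcx in every population) were named after their values were seen. Same-numbered libraries deviated together at every number in Intermediate and Progenitor (correlations 0.17 to 0.19). In each other pair of populations the smallest correlation was 0.079 or less. Single numbers there reached higher values, up to 0.346 for number 3 in SMC2 and Intermediate. The alternatives were DESeq2 size factors, upper-quartile scaling, the DESeq2 1.42.0 Wald test, no filter, only the 6 libraries compared, a replicate block, longest-transcript lengths and leaving out each library.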

Additional observations from a re-analysis of the deposited data

How the results depend on the processing

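Across 54 member differences and their 647 values under the alternatives, 631 kept their direction and side of the threshold, 6 lost the call, 9 gained it and 1 turned, and 46 differences kept both under every alternative. The turned value was Spp1 in SMC2 minus SMC1, which was 0.039 (adjusted p = 0.952) without SMC1 replicate 1 and reached -0.79 without SMC2 replicate 2; the cause was not tested. Those that lost a call were Runx2 in Intermediate minus Progenitor, Mgp in SMC2 minus Progenitor and Spp1 in SMC2 minus Progenitor, each on leaving out a library. Spp1 in SMC1 minus Progenitor gained the call under 6 alternatives.

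The number of members called ranged from 5 to 6 on leaving out a library in Intermediate minus Progenitor, from 7 to 8 in SMC1 minus Progenitor and in SMC2 minus Progenitor, and stayed at 7, 9 and 7 in SMC1 minus Intermediate, SMC2 minus Intermediate and SMC2 minus SMC1. All genes called in Intermediate minus Progenitor were 4218, and 2771 to 4105 on leaving out a library, with 2771 without Intermediate replicate 2. With the replicate block, 6 members and 4594 genes were called in that comparison, and the block changed no call of a member there. In the other comparisons the same-numbered libraries did not deviate together at every number, and the block moved the members called to 8 in SMC1 minus Progenitor and to no other count.

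Under upper-quartile scaling the calls of Intermediate minus Progenitor were 1593 higher and 2473 lower, against 2419 and 1799 in the TMM scaling, and the median of all genes shifted by -0.158. In SMC1 minus Progenitor they were 3783 and 5378, against 4804 and 4390, with a shift of -0.182, and in SMC2 minus SMC1 the shift was 0.11. The same scaling put Progenitor levels at 5.18 CPM for Tnfrsf11b, 38.9 CPM for Alpl and 44.1 CPM for Sox9. Depth limits Ibsp in Intermediate and Progenitor and Runx2 in SMC1, which rest on 14 reads or fewer per library.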

Other observations

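Dmp1, an acidic phosphoprotein of bone that lies in the same gene cluster as Ibsp and Spp1, was highest in SMC2, where none of the 9 genes had its highest mean. It averaged 6.54 ± 1.01 CPM in SMC2, 3.21 ± 1.01 CPM in SMC1, 1.59 ± 0.829 CPM in Intermediate and 0.664 ± 0.142 CPM in Progenitor (SD, n = 3 each). SMC2 exceeded Progenitor by 3.31 ± 0.40 log2 units (edgeR adjusted p = 7.01e-07) and SMC1 by 1.03 ± 0.34 (adjusted p = 0.0234). These neighbours on chromosome 5 peaked in different populations, Dmp1 in SMC2, Ibsp in SMC1 and Spp1 in Intermediate. Dmp1 was picked out after its values were seen.

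Csf1, the growth factor that acts with RANK ligand on macrophage precursors, was higher in Intermediate and Progenitor, where Tnfrsf11a was low, and both were lower in SMC2 than in SMC1. It averaged 42.2 ± 1.29 CPM in SMC2, 93.9 ± 21.4 CPM in SMC1, 233 ± 33.0 CPM in Intermediate and 314 ± 74.9 CPM in Progenitor.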
